A study of Homo sapiens with 6 samples.

Results

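The genes described here encode the machinery of autophagy, the proteins of the lysosome and the V-ATPase, a proton pump, and were chosen by name as 42 of the 58735 genes in the deposited tables. They comprise 3 genes of the TFEB family of transcription factors, 22 of the autophagy machinery, 10 of the lysosomal membrane and lumen, and 7 V-ATPase subunits or accessory proteins. Expression was measured by RNA sequencing of poly(A)-selected RNA from MOLT-3, a human T-cell acute lymphoblastic leukaemia (T-ALL) line long established in culture. The 3 libraries of compound E and the 3 of DMSO, its solvent control, came from the same line. Compound E inhibits gamma-secretase, the protease that releases the active part of NOTCH receptors, and the study asked which NOTCH1-dependent genes might bear on how T-ALL cells respond to chemotherapy. No dose or duration is given in the sources used here, nor whether the libraries of a group came from separate cultures, so p-values measure only the spread between libraries.

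In autophagy, a cell encloses cytoplasm in a double membrane, the autophagosome, which fuses with the lysosome so that its contents are degraded. The ULK1 kinase complex starts the process, a lipid kinase complex around PIK3C3 and BECN1 marks the growing membrane, and conjugation enzymes attach ATG8 proteins such as LC3 to it. Cargo receptors such as SQSTM1 link the cargo to the ATG8 proteins. The V-ATPase acidifies the lysosome, and TFEB, TFE3 and MITF switch on many lysosomal and autophagy genes by binding a DNA element that contains the letters CACGTG. NOTCH1 is often mutated and active in T-ALL, where it drives growth and metabolism.

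The libraries held 18213847, 18154037 and 18973990 counts with compound E and 19309393, 19845114 and 17316138 counts with DMSO. The NOTCH target genes HES4, DTX1, NOTCH3 and HES1 were lower with compound E, with log2 fold changes of -4.90, -4.60, -3.03 and -2.16 (compound E over DMSO, as throughout). All 8 T-lineage markers had at least 10 counts in every library, and their summed level was 2022 to 2075 CPM (counts scaled to the library's total) with compound E and 2196 to 2238 CPM with DMSO. Single markers moved in opposite directions, CD2 and CD1A with log2 fold changes of 0.94 and 0.70 and CD7 and CD3D with -0.73 and -0.34, all called. The B-lineage markers MS4A1 and PAX5, the myeloid markers MPO and S100A8 and the stromal markers COL1A2 and COL3A1 had 0 counts. The 5 B-lineage markers summed to 13.6 to 15.0 CPM with compound E and 14.2 to 15.4 CPM with DMSO, of which CD79A made up most. The 8 myeloid markers summed to 2.49 to 2.79 CPM with compound E and 2.90 to 3.12 CPM with DMSO, and the 4 erythroid markers to 0.164 to 0.584 CPM with compound E and 0.151 to 0.520 CPM with DMSO. The 4 stromal markers summed to 9.96 to 12.01 CPM with compound E and 13.9 to 14.8 CPM with DMSO, and among them PDGFRB fell by 0.93 on the log2 scale (edgeR adjusted p = 0.000575). Whether the counts of these markers of other lineages came from the MOLT-3 cells or from other cells was not tested. In RNA from whole cultures, fewer cells of a kind and less RNA per cell cannot be told apart.

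The promoters are shown first because many lysosomal genes are known as targets of the TFEB family. RefSeq promoters on GRCh38.p14, from 250 bases before to 50 bases after a gene's start, were matched for 35 of the 42 genes. The sequence CACGTG, which reads the same on both strands, and the longer forms GTCACGTG and CACGTGAC, which are each other's reverse complement and contain it, were searched on both strands. Of the 35 genes, 7 (20%) held a longer form, against 2.93% of all 27305 genes with a promoter and 5.19% of the 10538 of these that were tested. For CACGTG the same 7 genes (20%) had a match, against 8.77% of all and 12.7% of tested genes. The stretches before the RefSeq start are printed 5′ to 3′ on the gene's strand with the longer forms in capitals, and stretches that overlap an annotated exon are kept to 30 bases around a match.
LAMP1 (chr13:113296989-113297238, plus strand): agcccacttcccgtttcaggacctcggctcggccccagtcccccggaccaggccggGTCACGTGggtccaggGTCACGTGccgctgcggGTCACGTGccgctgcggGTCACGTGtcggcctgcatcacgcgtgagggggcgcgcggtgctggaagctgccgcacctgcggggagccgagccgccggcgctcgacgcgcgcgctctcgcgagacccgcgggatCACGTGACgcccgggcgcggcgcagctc
MCOLN1 (chr19:7522534-7522623, plus strand): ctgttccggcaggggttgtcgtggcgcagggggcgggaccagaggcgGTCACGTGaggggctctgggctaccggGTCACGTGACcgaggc
CTSA (chr20:45891280-45891309, plus strand): ggaggaagactGTCACGTGgcgccggagtt
CTSD (chr11:1763956-1763985, minus strand): ccggccgcgccCACGTGACcggtccgggtg
ATP6V0D1 (chr16:67481200-67481229, minus strand): gcccccttatgGTCACGTGaggcgcttgcg
ATG14 (chr14:55411833-55411862, minus strand): aaacaaaatccCACGTGACtggctctcctc
ATG3 (chr3:112561964-112561993, minus strand): ccctttctcacGTCACGTGccgggagagtc
LAMP1 stood apart with 6 copies of the longer forms, of which 5 lie wholly within the printed stretch, and MCOLN1 had 3, of which an overlapping pair makes up the longest run in capitals. A match is a run of letters and not a known binding site, and the absence of one from this window says nothing about the factor. The 7 genes did not move one way. LAMP1 and ATP6V0D1 were higher with compound E, ATG14 and CTSD were lower, and MCOLN1, CTSA and ATG3 did not pass the test.

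Of the 42 genes, 40 had enough counts to be tested, and 18 of these (45%) changed with compound E at an adjusted p under 0.05 (quasi-likelihood F-test of edgeR, adjusted by Benjamini-Hochberg), against 38.3% of all 16926 tested genes. The 10 that rose made up 25%, against 18.9% of all tested genes, and the 8 that fell made up 20%, against 19.4%. Where the background was limited to protein-coding genes that averaged 5 CPM or more, 49.7% were called, 26.7% higher and 23.0% lower, so the share among the 40 was near that of other genes. The compound E and DMSO libraries did not overlap for 24 of the 40 genes (60%), against 46.8% of all tested genes, and these included all 18 called ones. The median log2 fold change was 0.004 over the 40 genes and -0.003 over all tested genes.

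Most changes were small. The 18 called genes changed by a median of 1.14-fold, and 17 of them by under 1.3-fold, with WIPI1 as the exception. The spread between libraries of a group beyond counting noise was 2.72% (edgeR common dispersion 0.00074), so changes this small could be called. Of the 22 genes that did not pass the test, 18 had a 95% interval of the log2 fold change that lay within 0.25 of 0 on either side. The summed level of the 42 genes was 357 to 366 FPKM (fragments per kilobase of gene, scaled to depth) with compound E and 356 to 357 FPKM with DMSO. Per length, ATP6V1B2, part of the catalytic head of the pump, was the most abundant at 30.3 ± 0.617 FPKM with compound E and 31.0 ± 0.694 FPKM with DMSO (SD, n = 3 each). ULK1 followed at 26.5 ± 1.00 FPKM with compound E and 20.7 ± 0.667 FPKM with DMSO. Next came LAMP2 and GABARAPL2, at 21.1 ± 0.383 and 19.99 ± 0.801 FPKM with compound E and 22.3 ± 0.512 and 18.4 ± 0.460 FPKM with DMSO. LAMP1 stood at 20.001 ± 0.625 FPKM with compound E, within the spread of GABARAPL2 there, and at 16.9 ± 0.312 FPKM with DMSO. At the low end of the tested genes were TFEB, HEXA and GABARAP, with 1.26, 1.66 and 1.76 FPKM with compound E and 1.14, 1.57 and 1.62 FPKM with DMSO. GABARAP shares 55.7% of its exonic bases with other annotated genes, so its level and its place in this order are uncertain.

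**Figure D1:**
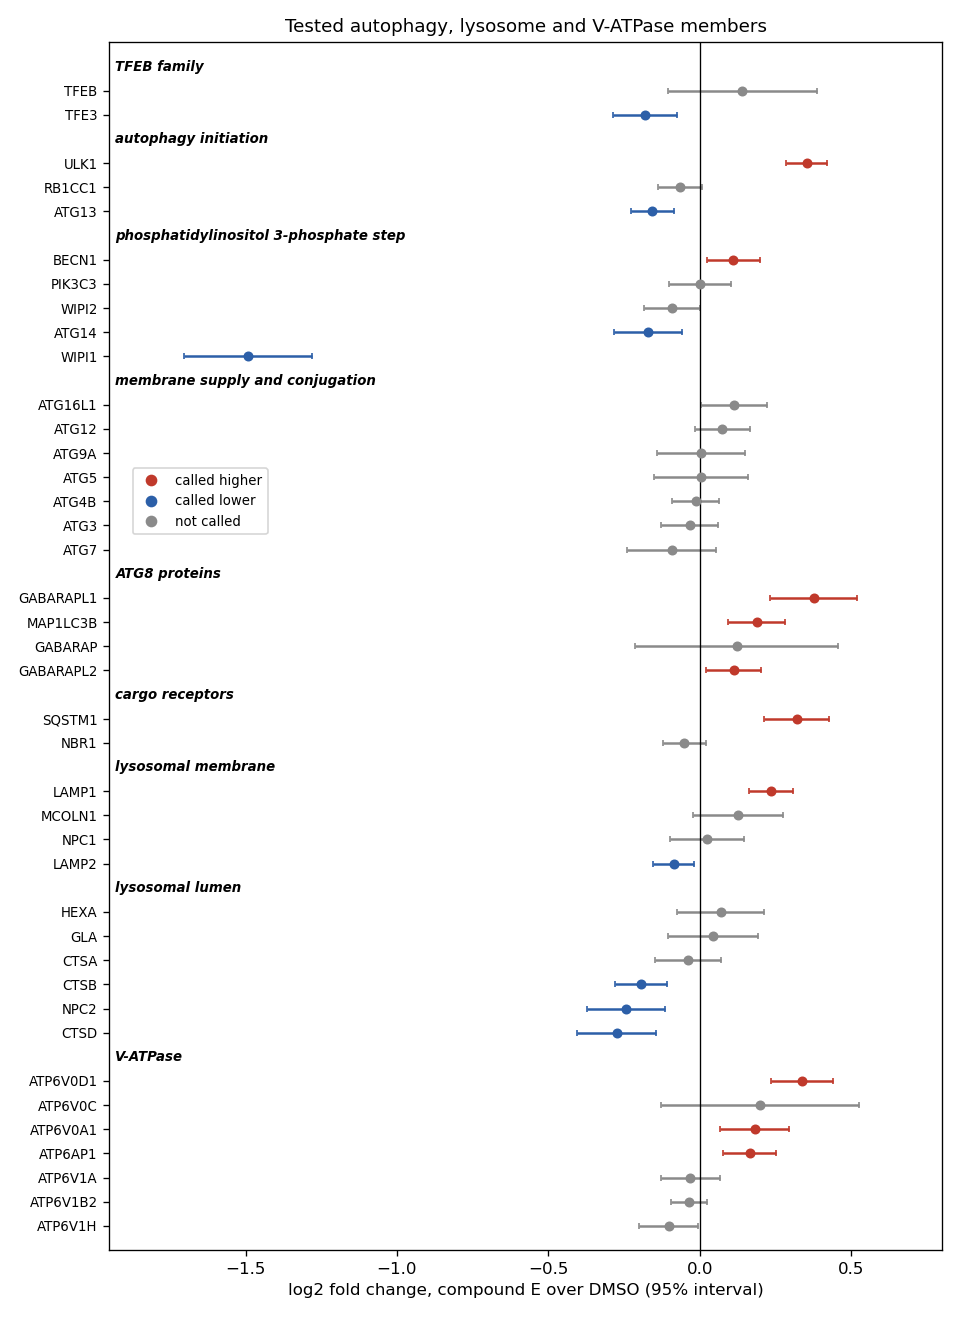
Log2 fold change of compound E over DMSO with its 95% interval for the 40 tested genes, grouped by role (rows) and coloured by call. WIPI1 lies at -1.49, apart from the other 39, which lie between -0.27 and 0.38.

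The TFEB family was represented by TFEB and TFE3. TFEB had 7.39, 6.31 and 7.81 CPM with compound E and 6.42, 6.56 and 6.53 CPM with DMSO. The groups overlapped, since the lowest compound E library was below all DMSO libraries, and the log2 fold change of 0.14 ± 0.122 (SE) did not pass the test (edgeR adjusted p = 0.391), with a 95% interval of -0.11 to 0.39. TFE3, the more abundant of the pair, had 36.3, 35.5 and 39.1 CPM with compound E and 41.3, 42.2 and 42.1 CPM with DMSO. Every compound E library was below every DMSO library, and TFE3 fell by 0.18 ± 0.0526 on the log2 scale (edgeR adjusted p = 0.00573). MITF, the third, had 1, 2 and 0 counts with compound E and 0 in each DMSO library, too few for a test or a fold.

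Among the 14 other genes listed for the control of this family at the lysosome, 0 rose and 3 fell by edgeR, and 0 rose by DESeq2 or limma-voom. At an unadjusted p under 0.05 (edgeR), 2 were higher, LAMTOR1 and LAMTOR3. Both passed with limma on log2(FPKM + 1) (adjusted p = 0.0321 and 0.0476), and LAMTOR5 passed by edgeR without compound E replicate 3 (adjusted p = 0.0449). Those that fell were FNIP1 and FLCN, which form the complex that acts on the Rag GTPases, and RRAGD, a Rag GTPase. FNIP1 had 48.9 ± 1.10 CPM with compound E and 60.4 ± 0.984 CPM with DMSO (SD, n = 3 each), a log2 fold change of -0.30 (edgeR adjusted p = 6.78e-07). RRAGD had 20.2 ± 1.19 CPM with compound E and 25.2 ± 2.01 CPM with DMSO, a log2 fold change of -0.31 (edgeR adjusted p = 0.000412). FLCN changed by -0.22 (edgeR adjusted p = 0.00567), and without DMSO replicate 3 by -0.17 (edgeR adjusted p = 0.0633). The median over the list was 0.04. Over all tested genes 18.9% were higher and 19.4% lower.

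The initiation complex moved in opposite directions within itself. ULK1, its kinase (chr12:131894651-131923167, plus strand, GRCh38), had 208, 194 and 206 CPM with compound E and 158, 164 and 154 CPM with DMSO. The groups were well apart, and ULK1 rose 1.28-fold, a log2 fold change of 0.35 ± 0.0328 (edgeR adjusted p = 1.34e-11). ATG13, the subunit that links ULK1 to the rest of the complex, fell with 101 ± 2.12 CPM with compound E and 113 ± 1.28 CPM with DMSO (SD, n = 3 each; log2 fold change -0.16, edgeR adjusted p = 0.000353). RB1CC1 (FIP200), the scaffold, had 102 ± 1.92 CPM with compound E and 107 ± 1.87 CPM with DMSO and did not pass the test (edgeR adjusted p = 0.148). ULK2, the paralogue of ULK1, had 3, 0 and 0 counts with compound E and 0 with DMSO. Per length, ULK1 was thus 1.85 ± 0.109 times as abundant as ATG13 with compound E and 1.29 ± 0.0484 times with DMSO.

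The phosphatidylinositol 3-phosphate step, in which a lipid mark is made and read on the growing membrane, held the largest change of the 40 tested genes. WIPI1 (chr17:68420948-68457513, minus strand, GRCh38) encodes a WD-repeat protein that binds this lipid. It had 103, 104 and 106 counts, or 5.63, 5.75 and 5.63 CPM, with compound E and 286, 351 and 265 counts, or 14.8, 17.7 and 15.3 CPM, with DMSO. The compound E libraries were nearly equal and far below the lowest DMSO library. WIPI1 was 2.81-fold lower, a log2 fold change of -1.49 ± 0.104 (edgeR adjusted p = 4.07e-15), and among all tested genes 3.83% were called at 2-fold or more. Its paralogue WIPI2, which recruits the conjugation machinery, had 58.3 ± 2.19 CPM with compound E and 62.2 ± 3.01 CPM with DMSO (SD, n = 3 each) and did not pass the test (edgeR adjusted p = 0.115), although it did without DMSO replicate 1 (log2 fold change -0.13, edgeR adjusted p = 0.0484). The ratio of WIPI1 to WIPI2, per length, was 0.266, 0.257 and 0.248 with compound E and 0.664, 0.721 and 0.644 with DMSO.

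The lipid kinase itself changed little. PIK3C3 (VPS34), the catalytic subunit, had 41.8 ± 0.782 CPM with compound E and 41.7 ± 1.26 CPM with DMSO (SD, n = 3 each), and the 95% interval of its log2 fold change ran from -0.10 to 0.10. BECN1, its regulatory partner, rose with a log2 fold change of 0.11 (edgeR adjusted p = 0.0390), and ATG14, the subunit that directs the kinase to autophagy, fell with -0.17 (edgeR adjusted p = 0.0126). Neither call was firm. With all 6 libraries, DESeq2 gave an adjusted p of 0.108 for BECN1 and 0.0590 for ATG14. BECN1 did not pass without compound E replicate 2, DMSO replicate 1 or DMSO replicate 3 (log2 fold changes 0.09, 0.10 and 0.11, edgeR adjusted p = 0.139, 0.132 and 0.104). ATG14 did not pass without compound E replicate 1, DMSO replicate 1 or DMSO replicate 3 (log2 fold changes -0.16, -0.15 and -0.14, edgeR adjusted p = 0.0544, 0.0695 and 0.0775). BECN1 shares 17.1% of its exonic bases with genes on the other strand, among them PSME3, which was higher with a log2 fold change of 0.26 (edgeR adjusted p = 1.39e-09), and the sources used here do not say whether counting took the strand into account.

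**Figure D2:**
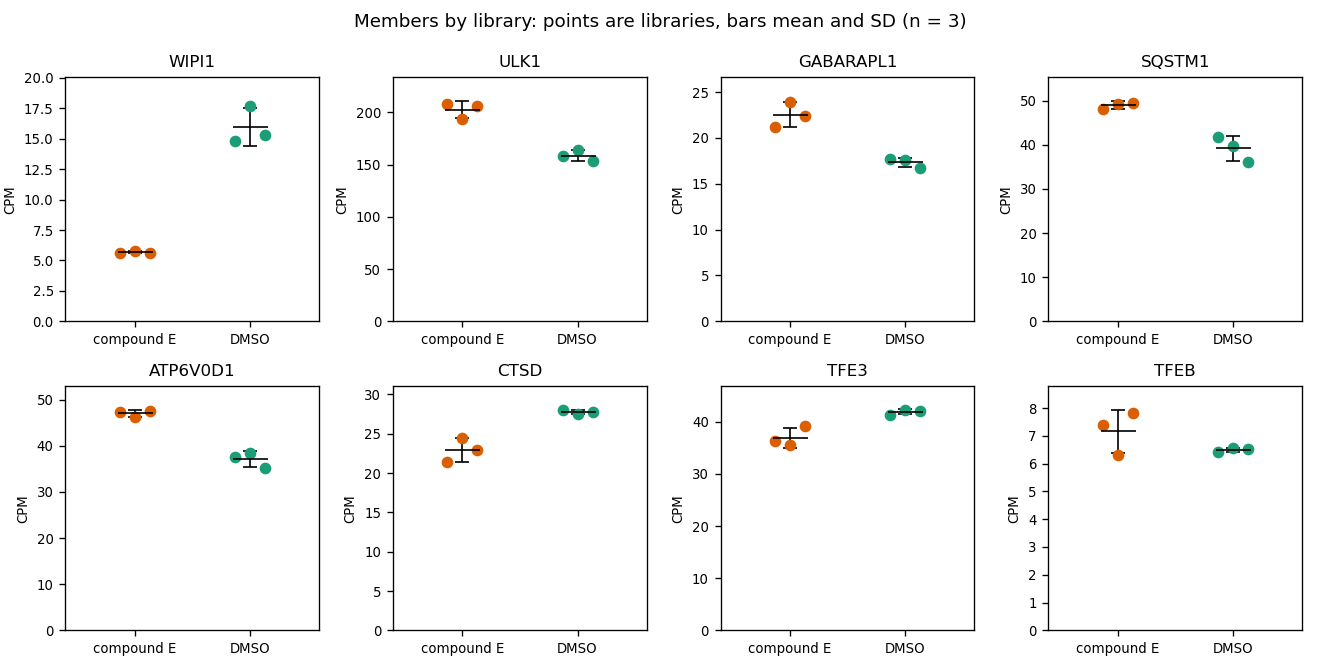
Level in CPM (vertical axes, each from 0) of 8 genes in the 3 compound E libraries (left in each panel) and the 3 DMSO libraries (right), with mean and SD. Compound E and DMSO libraries do not overlap for the 7 genes other than TFEB.

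The genes around WIPI1 were also lower with compound E, a set looked at after its values were seen. Of the 16 annotated genes that overlap the stretch from 250 kb before to 250 kb after WIPI1, 10 were tested, and 8 of these, WIPI1 included, fell while 0 rose by edgeR, DESeq2 or limma-voom. The shares over all tested genes were 19.4% lower and 18.9% higher by edgeR. Because the stretch was centred on a gene already seen to fall, its count is a description and not a test. At an unadjusted p under 0.05 (edgeR) 1 was higher, the non-coding AC005332.2 (log2 fold change 0.60, 95% interval 0.02 to 1.19). AC005332.2 was called higher under 2 of the 16 alternative analyses that held it. ARSG, which encodes the lysosomal enzyme arylsulfatase G and overlaps the 3′ end of WIPI1 with its own, had 9.63, 9.79 and 9.56 CPM with compound E and 26.3, 30.6 and 27.3 CPM with DMSO. Its log2 fold change of -1.54 ± 0.0793 (edgeR adjusted p = 4.17e-19) was close to that of WIPI1. SLC16A6, a monocarboxylate transporter gene inside the span of ARSG, had 2.90 ± 0.402 CPM with compound E and 8.20 ± 0.193 CPM with DMSO (SD, n = 3 each; log2 fold change -1.50, edgeR adjusted p = 2.42e-11). AC007780.1, an antisense transcript, and MIR635, a miRNA locus inside WIPI1, fell by 1.74 and 2.14 on the log2 scale, and AC005332.4, a non-coding RNA, by 0.60.

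The fall was not uniform along this stretch. PRKAR1A, a regulatory subunit of protein kinase A, changed by -0.12 (edgeR adjusted p = 0.00172), and AMZ2 by -0.02 with a 95% interval of -0.11 to 0.07. FAM20A changed by -1.04 (edgeR adjusted p = 0.0329) at no more than 24 counts in a library, and did not pass without compound E replicate 1, compound E replicate 2, DMSO replicate 2 or DMSO replicate 3 (log2 fold changes -0.69, -0.90, -0.88 and -1.02, edgeR adjusted p = 0.197, 0.109, 0.153 and 0.0701). WIPI1 shares 28.1% of its exonic bases with ARSG and AC007780.1 on the other strand. Without strand, the reads of these genes cannot be told apart where they overlap. MIR635 lies within WIPI1 on the same strand and shares no exonic base with it. Strand could not tell the reads of MIR635, at most 45 in a library, from other RNA transcribed across WIPI1. The fall of MIR635 can thus not be taken as separate from that of WIPI1.

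**Figure D3:**
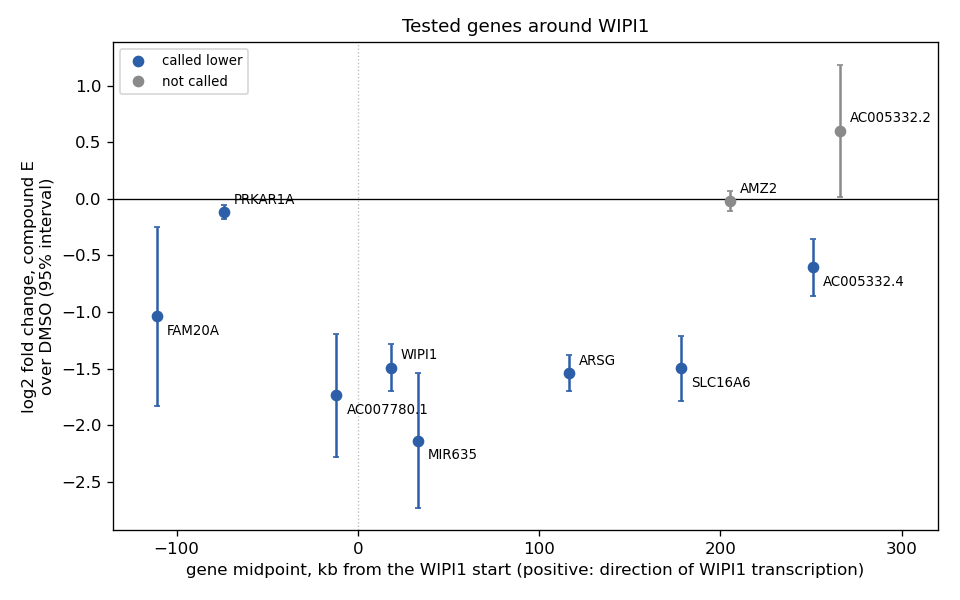
Log2 fold change of compound E over DMSO with its 95% interval (vertical axis) for the 10 tested genes around WIPI1, by distance of each gene's midpoint from the WIPI1 start in kb (horizontal axis). WIPI1, ARSG, SLC16A6, AC007780.1 and MIR635 lie at -1.49 or lower, while AMZ2 lies at -0.02.

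Membrane supply and conjugation showed no called change, with 0 of 7 genes passing by edgeR, DESeq2 or limma-voom. The share called by edgeR was 38.3% over all tested genes and 49.7% over the better expressed protein-coding genes. ATG9A, the scramblase of the vesicles that seed the membrane, the protease ATG4B, the E1-like enzyme ATG7, the E2-like enzyme ATG3 and the ATG12, ATG5 and ATG16L1 that together place ATG8 proteins on the membrane had log2 fold changes between -0.09 and 0.11. At an unadjusted p under 0.05 the count was 1, ATG16L1 (adjusted p = 0.0912 with edgeR), with 37.8, 37.2 and 39.4 CPM with compound E and 35.8, 35.8 and 34.1 CPM with DMSO. ATG16L1 and ATG7 were the genes of this step whose groups did not overlap. ATG4B was the most abundant per length, at 13.9 ± 0.424 FPKM with compound E and 13.9 ± 0.457 FPKM with DMSO (SD, n = 3 each), and ATG7 the least, at 2.00 ± 0.0665 FPKM with compound E and 2.13 ± 0.0593 FPKM with DMSO. ATG9A shares 38.8% of its exonic bases with another annotated gene and ATG7 18.1%, so their counts are uncertain.

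Among 7 tested further genes of conjugation and the ATG8 family, 1 rose and 2 fell, against 18.9% and 19.4% of all tested genes. ATG16L2, a paralogue of ATG16L1, had 50.6 ± 1.87 CPM with compound E and 87.9 ± 2.32 CPM with DMSO (SD, n = 3 each), a log2 fold change of -0.80 (edgeR adjusted p = 1.40e-18). Per length, the ratio of ATG16L2 to ATG16L1 was 0.933 ± 0.0535 with compound E and 1.75 ± 0.00857 with DMSO. ATG4D, another ATG4 protease, rose by 0.38 (edgeR adjusted p = 1.12e-07), and TECPR1, which links autophagosomes to lysosomes, changed by -0.12 (edgeR adjusted p = 0.00601). ATG4D shares 15% of its exonic bases with KRI1 on the other strand, which held up to 4111 counts in a library. The counts of ATG4D are thus uncertain.

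Of the ATG8 proteins, which sit on the autophagosome membrane and bind cargo receptors, 3 of 4 rose. The share that rose was 18.9% over all tested genes and 26.7% over the better expressed protein-coding genes. Without compound E replicate 2, DMSO replicate 1 or DMSO replicate 3, 2 of the ATG8 genes rose. GABARAPL1 (chr12:10212458-10223130, plus strand, GRCh38) had 21.2, 24.0 and 22.4 CPM with compound E and 17.7, 17.6 and 16.8 CPM with DMSO. All compound E libraries were above all DMSO libraries, and the log2 fold change was 0.38 ± 0.0715 (edgeR adjusted p = 4.36e-05). MAP1LC3B, the LC3 form most often used to follow autophagy, had 53.4 ± 0.541 CPM with compound E and 46.8 ± 1.49 CPM with DMSO (SD, n = 3 each; log2 fold change 0.19, edgeR adjusted p = 0.00132). GABARAPL2 rose by 0.11 (edgeR adjusted p = 0.0457) but did not pass without compound E replicate 2, DMSO replicate 1 or DMSO replicate 3 (log2 fold changes 0.08, 0.10 and 0.11, edgeR adjusted p = 0.209, 0.160 and 0.0912). GABARAP, at 61 to 80 counts a library, had a log2 fold change of 0.12 with a wide 95% interval of -0.21 to 0.46, and shares 55.7% of its exonic bases with other annotated genes. The ratio of GABARAPL1 to GABARAPL2, per length, was 0.275 ± 0.00760 with compound E and 0.229 ± 0.00979 with DMSO.

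SQSTM1 (p62), which carries ubiquitinated cargo into autophagosomes and is itself degraded there, rose (chr5:179806398-179838078, plus strand, GRCh38). It had 48.0, 49.3 and 49.6 CPM with compound E and 41.7, 39.8 and 36.1 CPM with DMSO. The compound E libraries were close together and above the more spread DMSO libraries, and the log2 fold change was 0.32 ± 0.0523 (edgeR adjusted p = 3.87e-06). SQSTM1 shares 22.0% of its exonic bases with MGAT4B and MRNIP on the other strand, which had log2 fold changes of 0.19 and -0.18. NBR1, a receptor of similar build, had 123 ± 4.97 CPM with compound E and 127 ± 0.563 CPM with DMSO (SD, n = 3 each) and did not pass the test (edgeR adjusted p = 0.264). The ratio of SQSTM1 to NBR1, per length, was 0.438 ± 0.0105 with compound E and 0.338 ± 0.0232 with DMSO.

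Of 15 other cargo receptors tested, 2 rose and 8 fell, with a median log2 fold change of -0.11. Over all tested genes 18.9% were higher and 19.4% lower, and over the better expressed protein-coding genes 26.7% and 23.0%. CALCOCO2 (NDP52), a receptor for bacteria and mitochondria, had 117 ± 1.53 CPM with compound E and 188 ± 3.48 CPM with DMSO (SD, n = 3 each; log2 fold change -0.68, edgeR adjusted p = 1.94e-20). RTN3 and FKBP8, receptors for the endoplasmic reticulum and mitochondria, both fell by 0.18 on the log2 scale (edgeR adjusted p = 1.22e-05 and 1.01e-05). BNIP3, a mitochondrial receptor known to respond to low oxygen, rose by 0.34 (edgeR adjusted p = 9.34e-05).

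**Figure D4:**
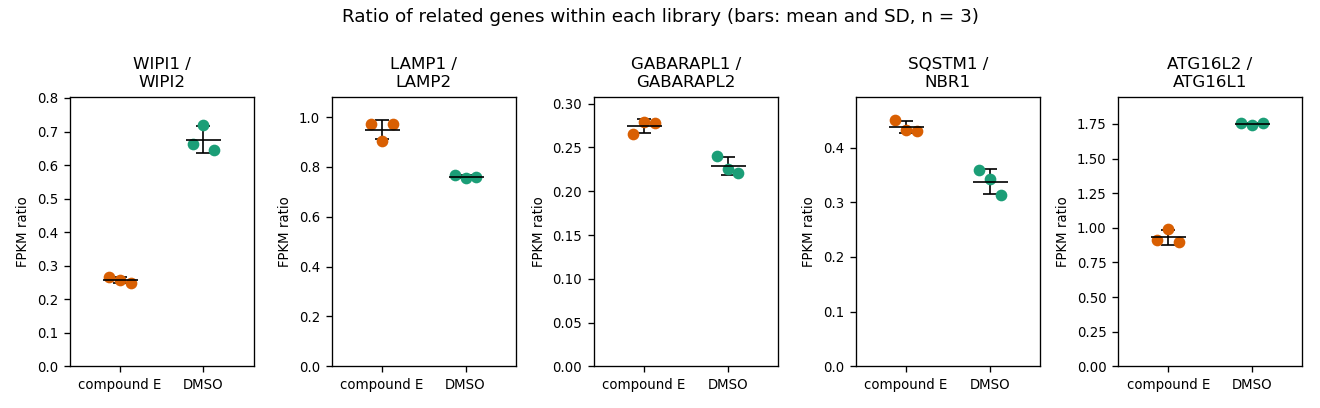
Ratio of the FPKM of 5 pairs of related genes (vertical axes) in each compound E library (left) and each DMSO library (right), with mean and SD. The compound E libraries lie below the DMSO libraries for WIPI1 to WIPI2 and above them for LAMP1 to LAMP2.

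The 2 main proteins of the lysosomal membrane moved in opposite directions, LAMP2 only slightly. LAMP1 rose with 115 ± 3.64 CPM with compound E and 98.0 ± 1.94 CPM with DMSO (SD, n = 3 each), a log2 fold change of 0.23 (edgeR adjusted p = 1.19e-06). LAMP2, which also takes part in chaperone-mediated autophagy, had 117 ± 2.01 CPM with compound E and 124 ± 3.04 CPM with DMSO, a log2 fold change of -0.09 (edgeR adjusted p = 0.0418). The LAMP2 call was lost without compound E replicate 1, DMSO replicate 2 or DMSO replicate 3 (log2 fold changes -0.07, -0.08 and -0.07, edgeR adjusted p = 0.167, 0.132 and 0.175). Per length, the ratio of LAMP1 to LAMP2 was 0.974, 0.904 and 0.973 with compound E and 0.766, 0.756 and 0.760 with DMSO. The groups of this ratio did not overlap. As the groups of neither gene overlapped, this follows from the same values and adds no support. NPC1, which exports cholesterol, and MCOLN1, a calcium channel, had log2 fold changes of 0.02 and 0.13 and did not pass the test (edgeR adjusted p = 0.794 and 0.183).

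Of 25 tested other membrane proteins of the lysosome, 2 rose and 6 fell. Among all tested genes 18.9% were higher and 19.4% lower, and among the better expressed protein-coding genes 26.7% and 23.0%. TPCN1, a cation channel, had 11.9 ± 0.554 CPM with compound E and 20.6 ± 0.508 CPM with DMSO (SD, n = 3 each; log2 fold change -0.79, edgeR adjusted p = 6.60e-11). SCARB2, which carries glucocerebrosidase to the lysosome, had 6.87 ± 0.258 CPM with compound E and 10.8 ± 0.618 CPM with DMSO (log2 fold change -0.66, edgeR adjusted p = 2.66e-06). SLC38A9, the arginine sensor of the mTORC1 pathway, and LAPTM4B, a small membrane protein, fell by 0.32 and 0.30 on the log2 scale.

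In the lysosomal lumen 3 of the 6 genes fell and 0 rose by edgeR, and 0 rose by DESeq2, by limma-voom or at an unadjusted p under 0.05 (edgeR). Background shares by edgeR were 19.4% lower and 18.9% higher over all tested genes. They were 23.0% and 26.7% over the better expressed protein-coding genes. CTSD (chr11:1752752-1764573, minus strand, GRCh38), an aspartic protease, had 21.4, 24.4 and 23.0 CPM with compound E and 28.0, 27.5 and 27.8 CPM with DMSO. The DMSO libraries were nearly equal and all above the compound E libraries, and CTSD fell by 0.27 ± 0.0637 on the log2 scale (edgeR adjusted p = 0.000583). It shares 52.7% of its exonic bases with 2 other annotated genes, which held at most 8 and 24 counts in a library, so its counts are uncertain. NPC2, the soluble partner of NPC1 in cholesterol export, had 22.0 ± 0.308 CPM with compound E and 26.1 ± 0.698 CPM with DMSO (SD, n = 3 each; log2 fold change -0.24, edgeR adjusted p = 0.00199). CTSB, a cysteine protease, had 68.5 ± 3.74 CPM with compound E and 78.5 ± 1.99 CPM with DMSO (log2 fold change -0.19, edgeR adjusted p = 0.000302). The protective protein CTSA and the glycosidases GLA and HEXA had log2 fold changes of -0.04, 0.04 and 0.07 and did not pass the test (edgeR adjusted p = 0.622, 0.681 and 0.475). CTSA shares 28.5% of its exonic bases with genes on the other strand, so its counts are uncertain.

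Over a wider list of lumen proteins the calls went both ways. Of 41 further tested genes 6 rose and 11 fell, with a median log2 fold change of -0.04. The shares over all tested genes were 18.9% higher and 19.4% lower, and over the better expressed protein-coding genes 26.7% and 23.0%. CTSH, a cysteine protease, had 50.02 ± 2.19 CPM with compound E and 30.5 ± 1.57 CPM with DMSO (SD, n = 3 each), a log2 fold change of 0.72 (edgeR adjusted p = 4.23e-14). ASAH1, acid ceramidase, and DNASE2, the lysosomal DNase, fell by 0.43 and 0.42 (edgeR adjusted p = 1.25e-08 and 2.13e-07). PSAP, the precursor of the saposins that present lipids to these enzymes, had 855 ± 7.60 CPM with compound E and 946 ± 15.9 CPM with DMSO (log2 fold change -0.15, edgeR adjusted p = 3.59e-06).

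The V-ATPase couples a membrane sector, V0, through which protons pass, to a cytosolic sector, V1, which splits ATP. Of the 7 genes chosen, 3 rose and 0 fell by edgeR, and 0 fell by DESeq2 or limma-voom. The number that rose was 2 without DMSO replicate 2. Background shares by edgeR were 18.9% higher and 19.4% lower over all tested genes. They were 26.7% and 23.0% over the better expressed protein-coding genes. ATP6V0D1 (chr16:67438014-67481237, minus strand, GRCh38), the V0 subunit that connects to the stalk of V1, had 47.2, 46.2 and 47.5 CPM with compound E and 37.7, 38.5 and 35.3 CPM with DMSO. The groups were well apart, and the log2 fold change was 0.34 ± 0.0510 (edgeR adjusted p = 8.86e-07). ATP6AP1, an accessory protein needed for assembly, rose with 69.3 ± 0.818 CPM with compound E and 61.8 ± 2.55 CPM with DMSO (SD, n = 3 each; log2 fold change 0.16, edgeR adjusted p = 0.00200). ATP6V0A1, the large V0 subunit that lines the proton path, changed by 0.18 (edgeR adjusted p = 0.00984), and without DMSO replicate 2 by 0.15 (edgeR adjusted p = 0.0641).

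The V1 genes among the 7 did not pass the test. ATP6V1A and ATP6V1B2, which form the ATP-splitting head, had log2 fold changes of -0.03 and -0.04, with 95% intervals of -0.13 to 0.07 and -0.09 to 0.02. ATP6V1H, which regulates the coupling of the sectors, had a log2 fold change of -0.10 (edgeR adjusted p = 0.0892) and was the 1 gene of the 7 that was lower at an unadjusted p under 0.05. ATP6V0C, the proton-carrying ring subunit, had 69, 78 and 71 counts with compound E and 61, 69 and 64 counts with DMSO and did not pass the test (log2 fold change 0.20, 95% interval -0.13 to 0.53). ATP6V0C shares 72.1% of its exonic bases with 2 other annotated genes on the same strand, which held at most 0 and 1 counts in a library. How reads in the shared bases were assigned is not known here, so its counts and its level per length are uncertain.

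Taking all 22 tested subunits, 10 rose and 4 fell. Of all tested genes 18.9% were higher and 19.4% lower, and of the better expressed protein-coding genes 26.7% and 23.0%. Split by sector, a division made after the values were seen, V0 had 6 that rose and 1 that fell of 9, with a median log2 fold change of 0.18, and V1 had 2 that rose and 3 that fell of 11, with a median of -0.03. These counts depended on single libraries. Without DMSO replicate 2, 4 rose in V0, 0 in V1 and 6 over all subunits, and without compound E replicate 2, 5 rose in V0, 0 in V1 and 7 over all. The risers in V1 numbered 1 without DMSO replicate 1 or DMSO replicate 3 and 3 without compound E replicate 3, while those that fell stayed at 1 in V0 and 3 in V1 with any library left out. The difference between the sectors was not tested. ATP6V0A4, a V0 subunit best known from kidney, had 44, 54 and 59 counts with compound E and 19, 17 and 11 counts with DMSO, or 2.84 ± 0.385 CPM and 0.826 ± 0.176 CPM (SD, n = 3 each; log2 fold change 1.77, edgeR adjusted p = 1.81e-07). ATP6AP2, the second accessory protein, rose by 0.30, and ATP6V0E2 and ATP6V1E2, an alternative V0 and V1 subunit, fell by 0.42 and 0.76 on the log2 scale. Of 7 assembly factors 3 rose and 1 fell, led by ROGDI with 12.2 ± 0.499 CPM with compound E and 8.43 ± 0.365 CPM with DMSO (log2 fold change 0.53, edgeR adjusted p = 2.87e-05). ROGDI shares 38.3% of its exonic bases with another annotated gene on the same strand, so its counts are uncertain. CCDC115 and DMXL2 had log2 fold changes of 0.18 and -0.15 (edgeR adjusted p = 0.00391 and 0.00209), and DMXL2 did not pass with limma on log2(FPKM + 1) (adjusted p = 0.0647). Without compound E replicate 2, 2 assembly factors fell. WDR7 changed by 0.14 (edgeR adjusted p = 0.0470) and did not pass without compound E replicate 1, compound E replicate 2, DMSO replicate 1 or DMSO replicate 2 (log2 fold changes 0.15, 0.11, 0.10 and 0.14, edgeR adjusted p = 0.0759, 0.188, 0.220 and 0.0975).

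**Figure D5:**
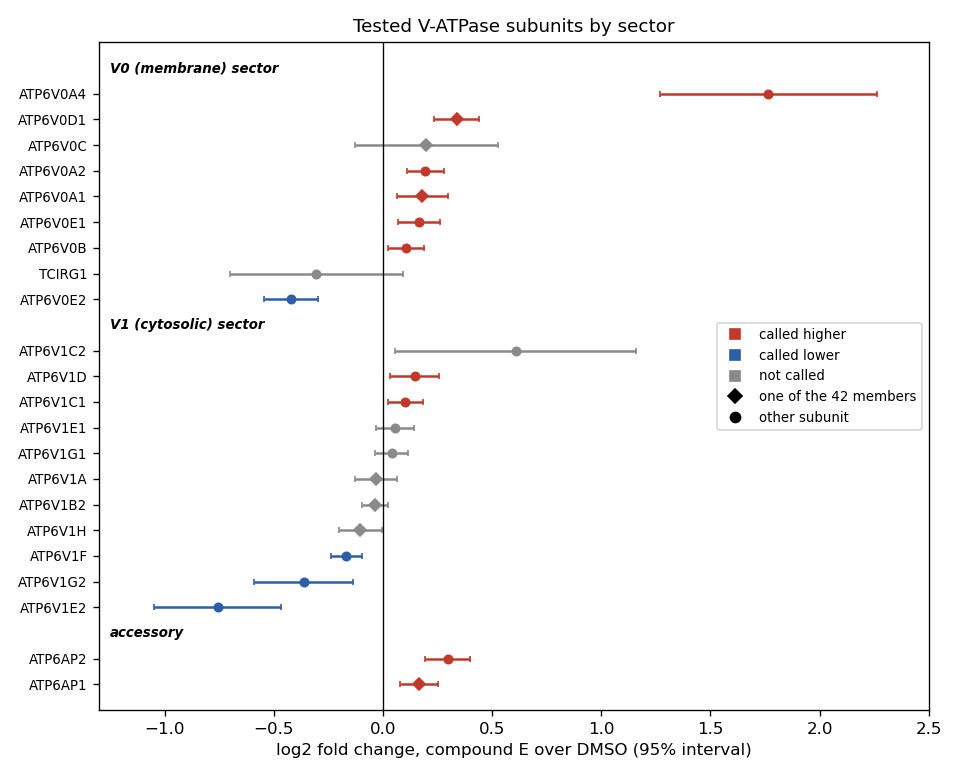
Log2 fold change of compound E over DMSO with its 95% interval (horizontal axis) for the 22 tested V-ATPase subunits, grouped into V0, V1 and accessory proteins, with diamonds for genes among the 42 and circles for the others. The V0 subunits have a median of 0.18 and the V1 subunits of -0.03.

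The remaining lists covered delivery to the lysosome and the phagophore. Of 18 tested genes of fusion and delivery, which bring enzymes and autophagosomes to the lysosome, 9 rose and 3 fell, with a median log2 fold change of 0.10. Over all tested genes 18.9% were higher and 19.4% lower, and over the better expressed protein-coding genes 26.7% and 23.0%. The fusion and delivery genes that rose numbered 6 without compound E replicate 2, 7 without DMSO replicate 1 and 8 or 9 without another library. Those that fell numbered 2 or 3 with any library left out. IGF2R, the mannose 6-phosphate receptor that sorts lysosomal enzymes, had 316 ± 5.21 CPM with compound E and 240 ± 3.47 CPM with DMSO (SD, n = 3 each; log2 fold change 0.40, edgeR adjusted p = 5.28e-15). VPS16, of the tethering complexes, SORT1, a sorting receptor, and YKT6, a SNARE, rose by 0.31, 0.25 and 0.25. Of 15 tested further genes of initiation and the phagophore, 4 rose and 1 fell, with a median of 0.00. The number that rose was 2 without compound E replicate 1, compound E replicate 3 or DMSO replicate 2, and the number that fell was 2 without compound E replicate 2, compound E replicate 3 or DMSO replicate 3. WDR45 and WDR45B, relatives of WIPI1 and WIPI2, moved in opposite directions, with log2 fold changes of -0.29 and 0.20 (edgeR adjusted p = 1.54e-05 and 0.000240).

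ATG101, a partner of ATG13, and ATG2A, a lipid transfer protein, had log2 fold changes of 0.21 and 0.14 (edgeR adjusted p = 0.00647 and 0.0155). ATG101 did not pass without compound E replicate 3 or DMSO replicate 2 (log2 fold changes 0.15 and 0.17, edgeR adjusted p = 0.0873 and 0.0595). ATG2A did not pass without compound E replicate 1, compound E replicate 3 or DMSO replicate 1 (log2 fold changes 0.12, 0.11 and 0.10, edgeR adjusted p = 0.0768, 0.0971 and 0.144). Over all 9 lists, 157 of 170 genes were tested, of which 34 rose and 39 fell, 46.5% in all, and the median log2 fold change was 0.00. This share lies between the 38.3% of all tested genes and the 49.7% of the better expressed protein-coding genes, so it was near the background. A longer form of the motif was held by 40% of 15 matched genes in the fusion and delivery list, 33.3% of 12 in the list of TFEB family control, 17.9% of 28 lumen, 17.4% of 23 membrane, 14.3% of 14 V-ATPase and 7.69% of 13 initiation genes. It was held by 0 of 13 cargo receptors, 0 of 7 conjugation and ATG8 genes and 0 of 5 assembly factors, against 5.19% of tested genes.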

How the data were processed

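Gene expression was measured in 6 libraries of MOLT-3 cells, 3 with compound E and 3 with DMSO, grouped by the treatment in the labels. Per the labels' protocols, mRNA was selected with oligo-dT beads and prepared with an NEBNext Ultra kit. The submitters' processing notes name HISAT2 2.0.5, featureCounts 1.5.0-p3 and DESeq2 1.16.1. The sources used here name no genome build, annotation or strand setting, but the coordinates of the genes listed here matched GENCODE release 29 on GRCh38. Exonic bases shared with other annotated genes are given for some of the named genes, not for all that have them. The deposited table of raw read counts per gene was not normalised by the authors. The FPKM deposited by the authors equal the count divided by gene length and by 1 divisor per library, and serve here only for levels between genes. CPM were computed here from the counts, as were log2 fold changes, which the authors' deposited tables do not hold.

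Counts were tested in R 4.3.3 with edgeR 4.0.16 (filterByExpr, TMM scaling, quasi-likelihood F-test, treatment as the only term), with Benjamini-Hochberg adjustment over 16926 genes and a threshold of 0.05. Library totals were 17316138 to 19845114 counts. On simulated counts for 16926 genes, the compound E against DMSO test recovered 36% of genes with a 1.2-fold change, 72% of those with 1.5-fold and 92% of those with 2-fold. False calls made up 6.25% of all. The simulation changed 50 genes at each of 1.2-, 1.5-, 2- and 4-fold and gave every gene the same spread between libraries. In the data 38.3% of tested genes were called, so the shares recovered in the simulation need not hold there. The 42 genes and the 9 other lists were chosen with earlier results of these data known. All 42 are named by role, with values in every library where a called log2 fold change is at least 0.25 in size and for the TFEB family, and in each other list up to 4 called genes with the smallest p are named. Other genes and values per library were chosen after they were seen. Alternatives were other scalings and filters, DESeq2 1.42.0, limma-voom and limma 3.58.1 on log2 FPKM with pseudocounts of 1 and 0.1, the replicate number as a block, and each library left out. Promoters came from RefSeq (GRCh38.p14), and figures were drawn with matplotlib 3.10.9.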

Additional observations from a re-analysis of the deposited data

How the results depend on the processing

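Under 17 alternatives none of the 40 tested genes changed direction with a call, and 11 of the 18 called genes stayed called under all of them. The other 7 lost the call under at least 1 alternative: GABARAPL2, BECN1, LAMP2, ATG14, ATP6V0A1, CTSB and TFE3. Of the 34 other genes named by the rule, 10 lost a call under at least 1 alternative: ATG101, ATG2A, DMXL2, FLCN and WDR7, and, with limma on log2(FPKM + 1) and no filter alone, ATP6V1E2, RRAGD, SCARB2, SLC38A9 and TECPR1. ATP6V1H and WIPI2 were called under at least 1. With limma on log2(FPKM + 1) and no filter, 4 of the 42 genes were lower in place of 8, 21 other pathway genes were higher in place of 34 and 25 lower in place of 39, and over all genes 4002 changed, 2128 higher and 1874 lower, and the cause was not tested. DESeq2 called 4949 genes, 8 of the 42 higher and 6 lower. Leaving out 1 library gave 8 to 10 of the 42 higher and 6 to 8 lower, 5671 to 6068 genes over all, and 27 to 33 other pathway genes higher and 34 to 40 lower. Same-numbered libraries did not deviate together (correlations 0.00312, -0.051 and -0.00233), no compound E library correlated best with the DMSO library of its own number, and with the replicate block 6138 genes changed, with 9 of the 42 higher and 7 lower. Genes with few counts, such as GABARAP and ATP6V0C, had intervals too wide to show changes of the size seen in the other genes.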
